A study of Mus musculus with 4 samples.

Results

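Scavenger receptors are proteins with which macrophages bind and take up modified lipoproteins, particles, microbes and spent host proteins. The 9 genes described here, Marco, Msr1, Scarb1, Cd163, Stab1, Olr1, Scara3, Scara5 and Cd5l, were taken by their symbols from a table of 54532 genes, and each symbol matched 1 row. They were read in bulk RNA-seq libraries of alveolar macrophages (AMs), which live on the airspace side of the lung epithelium, from female wild-type mice, which per the methods of the study were young adults of BALB/c background. There were 2 Control libraries, from tumor-free mice, and 2 Tumor libraries, from mice that had carried 4T1 cells in the mammary fat pad for 2 weeks. The 4T1 line derives from a mouse mammary carcinoma. For the staining of AMs isolated in the same experiment the study gives the gate CD45+ CD11b- CD11c+ SiglecF+, without stating it separately for the RNA libraries. The sources used here do not say whether a library held 1 mouse or a pool.

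The family is sorted into classes by structure. Class A members such as MARCO and SR-A1, the product of Msr1, carry a collagen-like stalk that binds polyanionic cargo, and both are known from lung macrophages as receptors for inhaled particles and bacteria. SR-B1, the product of Scarb1, moves cholesterol ester between HDL and the cell, LOX-1, the product of Olr1, binds oxidised LDL, stabilin-1 clears matrix and modified proteins, and CD163 takes up haemoglobin bound to haptoglobin. CD5L is a secreted protein built from the same cysteine-rich domains as CD163.

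Of the 9 genes, 7 had enough counts to be tested and 2, Scara3 and Scara5, did not. All 7 that were tested were lower in the Tumor libraries with a Benjamini-Hochberg adjusted p under 0.05 by edgeR's quasi-likelihood test. Of the 14256 genes tested, 53.8% were called, 24.8% lower and 29.0% higher. In all 7 members both Tumor values lay below both Control values, as they did in 35.8% of all genes tested. The 7 falls ran from 1.203-fold for Scarb1 to 4.22-fold for Cd163, with Cd5l at least 3.66-fold lower. A fall of at least 2-fold was called for 4 members, Cd163, Stab1, Olr1 and Cd5l, against 3.01% of all genes tested. The median log2 fold change of the 7 was -1.51, with Cd5l set at its bound, and that of all tested genes was 0.02. Cd5l passed the filter only through its Control counts, so its fall is not independent of the filter and adds no support to these counts of members.

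RefSeq promoter sequences of build GRCm38.p6 were matched for 5 members, Marco, Stab1, Olr1, Cd5l and Cd163, and they are shown because these genes were called lower together and the study concerns a DNA-binding factor, AHR. Each run gives the 250 bases before the annotated start, 5′ to 3′ on the strand of the gene, and capitals mark matches, on either strand, to any of 4 motifs. These were GCGTG, the core bound by AHR with its partner ARNT, GAGGAA, a core bound by the macrophage factor PU.1, TGANTCA, the AP-1 site, and TGACNNNGC, an antioxidant response element. The AP-1 and antioxidant motifs can overlap in their first bases.
Marco: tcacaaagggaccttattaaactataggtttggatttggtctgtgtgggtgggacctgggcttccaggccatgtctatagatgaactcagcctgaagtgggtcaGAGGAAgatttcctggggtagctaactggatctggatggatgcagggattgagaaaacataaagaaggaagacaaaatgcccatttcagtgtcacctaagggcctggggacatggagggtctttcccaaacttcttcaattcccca
Stab1: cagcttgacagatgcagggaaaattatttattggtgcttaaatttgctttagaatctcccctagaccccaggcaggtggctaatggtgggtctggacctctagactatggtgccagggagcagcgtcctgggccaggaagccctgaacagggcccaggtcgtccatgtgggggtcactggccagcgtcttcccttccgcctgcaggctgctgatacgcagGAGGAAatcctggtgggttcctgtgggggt
Olr1: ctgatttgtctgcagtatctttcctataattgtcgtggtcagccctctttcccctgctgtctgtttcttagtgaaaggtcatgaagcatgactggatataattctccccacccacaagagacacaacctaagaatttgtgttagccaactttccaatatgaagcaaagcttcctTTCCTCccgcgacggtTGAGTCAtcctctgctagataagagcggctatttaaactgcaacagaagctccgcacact
Cd5l: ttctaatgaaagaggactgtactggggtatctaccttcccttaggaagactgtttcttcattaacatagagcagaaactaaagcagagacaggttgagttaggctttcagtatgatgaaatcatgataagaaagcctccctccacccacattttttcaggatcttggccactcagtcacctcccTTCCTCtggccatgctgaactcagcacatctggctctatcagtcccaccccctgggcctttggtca
Cd163: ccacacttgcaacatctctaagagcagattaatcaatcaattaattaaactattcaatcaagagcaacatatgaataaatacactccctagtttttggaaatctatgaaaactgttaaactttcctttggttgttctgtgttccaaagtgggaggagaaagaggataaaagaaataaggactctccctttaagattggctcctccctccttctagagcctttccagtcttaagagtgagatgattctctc

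The Marco run lies at chr1:120505025-120505274 on the minus strand, that of Stab1 at chr14:31168642-31168891 on the minus strand and that of Olr1 at chr6:129507166-129507415 on the minus strand. The Cd5l run lies at chr3:87357631-87357880 and that of Cd163 at chr6:124304401-124304650, both on the plus strand. GAGGAA or its reverse complement was present in 4 of the 5 runs, all but Cd163, and in 23.3% of 32851 promoters of the same length. TGANTCA was present in 1 run, Olr1, where it began 60 bases before the start, downstream of the PU.1 match that began at 76, and in 6.75% of all promoters. GCGTG was in none of the 5 runs and in 28.2% of all promoters, and TGACNNNGC was in none and in 10.2%. These are letter matches in a short window and describe no binding.

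The libraries held 16167147 to 19205737 counts, TMM factors ran from 0.977 to 1.02, and a floor of 3 counts corresponded to 0.153 to 0.190 CPM, the count scaled to a common library size after TMM. Values at or under the floor were not taken as expression, and floors cover counting error only. Genes of AM identity were present in all 4 libraries, among them Chil3 and Mrc1, the most abundant of the list, at 5168 ± 102 and 3423 ± 33.9 CPM in Control and 3780 ± 163 and 2473 ± 8.55 CPM in Tumor (SD, n = 2). Of 14 AM identity genes 12 were called lower and 1 higher, their median log2 fold change was -0.46, and their summed level was 19718 to 19822 CPM in Control and 14120 to 14221 CPM in Tumor. They did not move together, with log2 fold changes from -2.13 for Fabp4 to 0.96 for Ear1, the gene called higher. Markers of 4 other cell types were far higher in Tumor. Over the 10 neutrophil genes, led by S100a9 and Ngp, the sum was 115.4 to 115.9 CPM in Control and 4358 to 4366 CPM in Tumor, over the 5 eosinophil genes, led by Prg2 and Epx, 0.480 to 0.507 and 2204 to 2224 CPM, over the 10 hepatocyte genes, led by Alb and Hp, of which 6 were at 0 in Control, 4.80 to 5.70 and 881.1 to 883.5 CPM, and over the 6 basophil and mast cell genes, led by Hdc and Gata2, 2.03 to 2.29 and 523.1 to 529.3 CPM. All genes of these 4 lists were called higher, and their part in the results below was not tested. In bulk RNA, fewer cells of a type and less RNA per cell cannot be told apart. For this reason the 7 tested members are also given with libraries scaled on the AM identity genes, under which the median over all tested genes shifted from 0.02 to 0.46 on the log2 scale and 91.6% rather than 53.9% of calls were higher. The part of the other cell types in the levels of these reference genes was not tested.

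**Figure D1:**
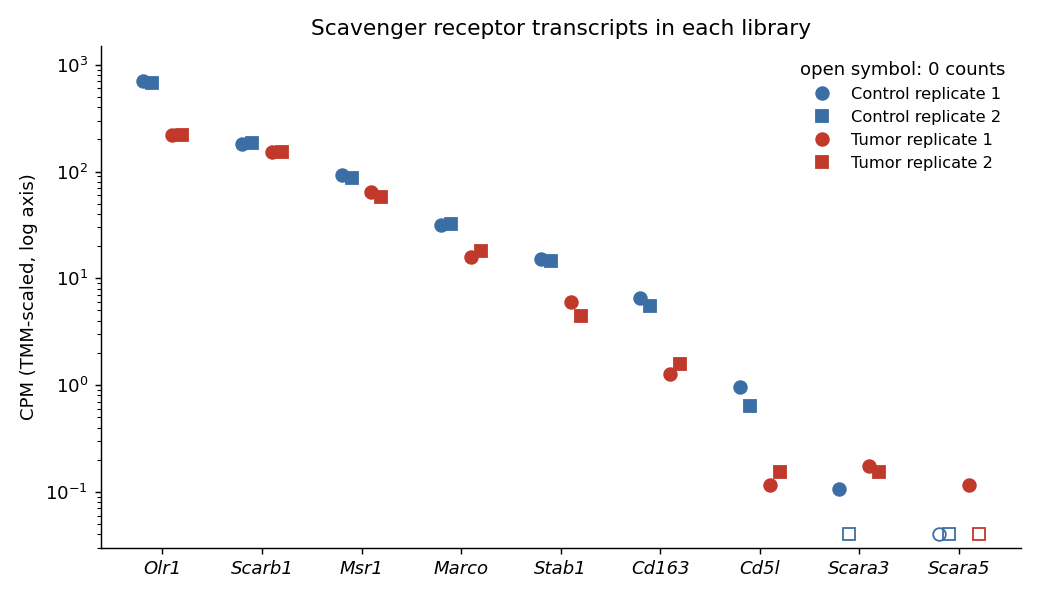
Level of each of the 9 genes in each library, in CPM on a log axis. Blue symbols are Control and red symbols Tumor libraries, circles replicate 1 and squares replicate 2, and open symbols at the bottom are 0 counts. For the 7 genes from Olr1 to Cd5l both Tumor points lie below both Control points, whereas Scara3 and Scara5 lie at or under the floor of 3 counts in all libraries.

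Among the class A receptors, Marco (ENSMUSG00000026390, chromosome 1, 120474538 to 120505024, minus strand, GRCm38) had 592 and 506 counts in Control and 277 and 351 in Tumor. It stood at 31.6 and 32.1 CPM in Control against 15.996 and 17.9 CPM in Tumor, so the groups did not overlap and the Tumor level was 53.2% of the Control level. On the log2 scale it fell by 0.91 ± 0.0933 (SE, edgeR adjusted p = 2.79e-09). With scaling on AM identity genes it was -0.47, with an adjusted p of 7.68e-05.

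Msr1 (ENSMUSG00000025044, chromosome 8, 39581685 to 39642673, minus strand) fell less. It had 1727 and 1364 counts in Control and 1124 and 1126 in Tumor, that is 92.1 and 86.4 CPM against 64.9 and 57.4 CPM. On the log2 scale this was a fall of -0.55 ± 0.0583 (SE, edgeR adjusted p = 4.64e-09). The lower Control value lay above the higher Tumor value by more than the spread within either group. With scaling on AM identity genes the value was -0.11 and was not called, with an adjusted p of 0.105. The fall of Marco exceeded that of Msr1 by 0.36 on the log2 scale, with a 95% interval of 0.13 to 0.58 from the standard errors of the fit.

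Of the 4 class A members, Marco, Msr1, Scara3 and Scara5, nearly all counts came from Marco and Msr1. Per kilobase of gene length, Marco held 53.0% and 55.0% of the summed level of these 4 genes in Control and 44.7% and 50.6% in Tumor. Msr1 held 46.9% and 45.0% in Control and 55.0% and 49.2% in Tumor. Marco was thus above Msr1 in both Control libraries, and in Tumor Msr1 was above Marco in replicate 1 and just below it in replicate 2. On plain counts the order turned, with Msr1 above Marco in every library and mean shares of 73.7% and 26.3% in Control and 78.0% and 21.7% in Tumor. These shares leave out Colec12, a class A receptor that is not among the 9 genes, which stood at 11.8 CPM per kilobase in Control and 8.89 in Tumor. Scara3 (ENSMUSG00000034463, chromosome 14, 65919394 to 65953935, minus strand), a class A gene linked to the response to oxidative stress, had 2 and 0 counts in Control and 3 in each Tumor library. Scara5 (ENSMUSG00000022032, chromosome 14, 65666403 to 65764826, plus strand), which encodes a receptor for ferritin, was seen with 2 counts in Tumor replicate 1 and with 0 elsewhere. No difference in these genes was detectable at this depth, and no fold change is given.

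The class B receptor gene Scarb1 (ENSMUSG00000037936, chromosome 5, 125277087 to 125341094, minus strand) showed the smallest fall. Its counts were 3410 and 2917 in Control and 2620 and 3011 in Tumor, and its level was 181.9 and 184.8 CPM against 151.3 and 153.5 CPM. The change was -0.27 ± 0.0358 on the log2 scale (SE, edgeR adjusted p = 3.48e-07). The spread within each group was small, but the direction depended on the scaling, since with AM identity genes as the reference Scarb1 was higher by 0.17, with an adjusted p of 0.000185. The fall of Msr1 exceeded that of Scarb1 by 0.28 on the log2 scale, with a 95% interval of 0.14 to 0.42.

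Olr1 (ENSMUSG00000030162, chromosome 6, 129485244 to 129507165, minus strand), the class E gene encoding LOX-1, was the most abundant member and carried most of the lost counts. It had 13194 and 10672 counts in Control and 3845 and 4295 in Tumor. Its level was 703.9 and 676.2 CPM in Control against 222.0 and 218.9 CPM in Tumor, a 3.13-fold difference with no overlap. The change was -1.65 ± 0.0277 on the log2 scale (SE, edgeR adjusted p = 4.34e-27), and with scaling on AM identity genes it was -1.21. In Control, Olr1 stood above 98.5% of tested genes in CPM per kilobase, and 0.996% of tested genes had a lower log2 fold change. The promoter printed above for Olr1 was the single run with an AP-1 match.

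Olr1 also held the largest part of the summed level of the 9 genes in every library. Per kilobase of gene length it held 78.0% and 77.6% in Control and 62.5% and 62.2% in Tumor. Scarb1, which fell least, held 8.47% and 8.91% in Control and 17.9% and 18.3% in Tumor. On plain counts Olr1 held 68.2% and 67.6% in Control and 48.1% and 48.2% in Tumor, and Scarb1 17.6% and 18.5% against 32.8% and 33.8%, so the values depend on the length scaling while both directions are the same. The summed level of the 9 genes was 1032 and 1000 CPM in Control and 461.9 and 453.9 CPM in Tumor, a 2.22-fold difference.

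**Figure D2:**
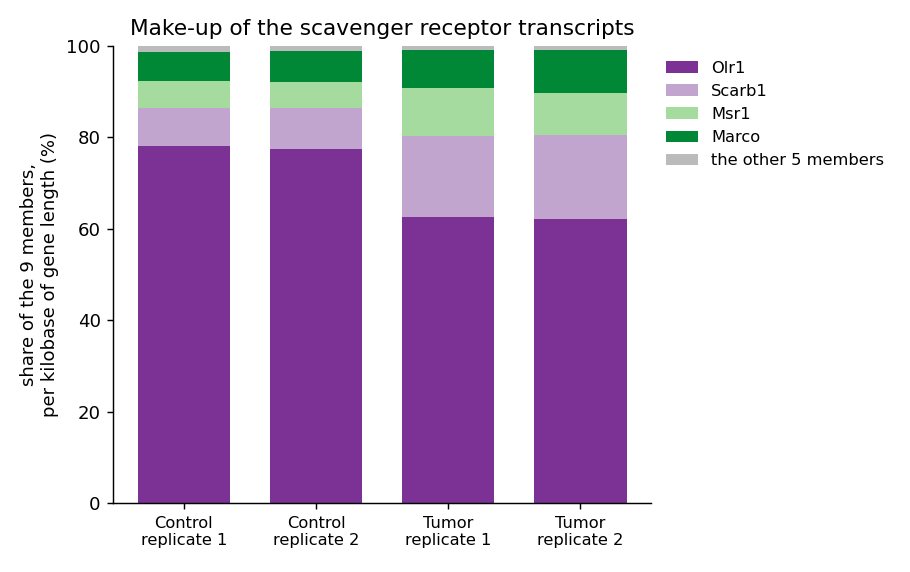
Share of each gene in the summed level of the 9 members, in percent per kilobase of gene length, for each library. Olr1 fills 78.0% and 77.6% of the Control bars and 62.5% and 62.2% of the Tumor bars, and the parts of Scarb1, Msr1 and Marco are larger in both Tumor bars.

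The remaining members were low in these cells. Stab1 (ENSMUSG00000042286, chromosome 14, 31139013 to 31168641, minus strand), the class H gene, had 283 and 228 counts in Control and 104 and 87 in Tumor, that is 15.1 and 14.4 CPM against 6.01 and 4.43 CPM. The change was -1.51 ± 0.154 on the log2 scale (SE, edgeR adjusted p = 2.34e-09), and with scaling on AM identity genes it was -1.07. Stab1 shares 112 bases with Nt5dc2 on the opposite strand, and the strand setting of the counting is not given in the sources used here. Nt5dc2 had 43 and 39 counts in Control and 61 and 75 in Tumor, so it moved the other way.

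Cd163 (ENSMUSG00000008845, chromosome 6, 124304656 to 124330527, plus strand), the class I gene for the haemoglobin-haptoglobin receptor, had 122 and 87 counts in Control and 22 and 31 in Tumor. Its level was 6.51 and 5.51 CPM against 1.27 and 1.58 CPM, so Tumor held 23.7% of the Control level. On the log2 scale the change was -2.07 ± 0.242 (SE, edgeR adjusted p = 3.01e-08), and with scaling on AM identity genes it was -1.63.

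Cd5l (ENSMUSG00000015854, chromosome 3, 87357881 to 87371073, plus strand) had 18 and 10 counts in Control and 2 and 3 in Tumor. Both Tumor libraries were at the floor, so the difference is given as a bound, from the lower Control value and the higher Tumor floor, and was at least 3.66-fold. The edgeR adjusted p was 0.00279, and with scaling on AM identity genes Cd5l was still called lower, with an adjusted p of 0.00916. Without Control replicate 1 the fitted log2 fold change of -2.18 was no longer called, with an adjusted p of 0.172.

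The order of the members by level per kilobase was Olr1, Scarb1, Marco, Msr1, Stab1, Cd163, Cd5l, Scara3 and Scara5 in Control. In that order the 2 libraries of each gene did not overlap those of the next gene, except for Scara3 and Scara5. In Tumor, Msr1 stood above Marco, at 9.64 against 8.80 CPM per kilobase, and their values overlapped. By size of change, the fall of Cd163 exceeded that of Olr1 by 0.42 on the log2 scale, with a 95% interval of -0.08 to 0.92, and that of Olr1 exceeded that of Stab1 by 0.14, with an interval of -0.18 to 0.46. Both intervals include 0. The fall of Stab1 exceeded that of Marco by 0.60, with an interval of 0.23 to 0.97.

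**Figure D3:**
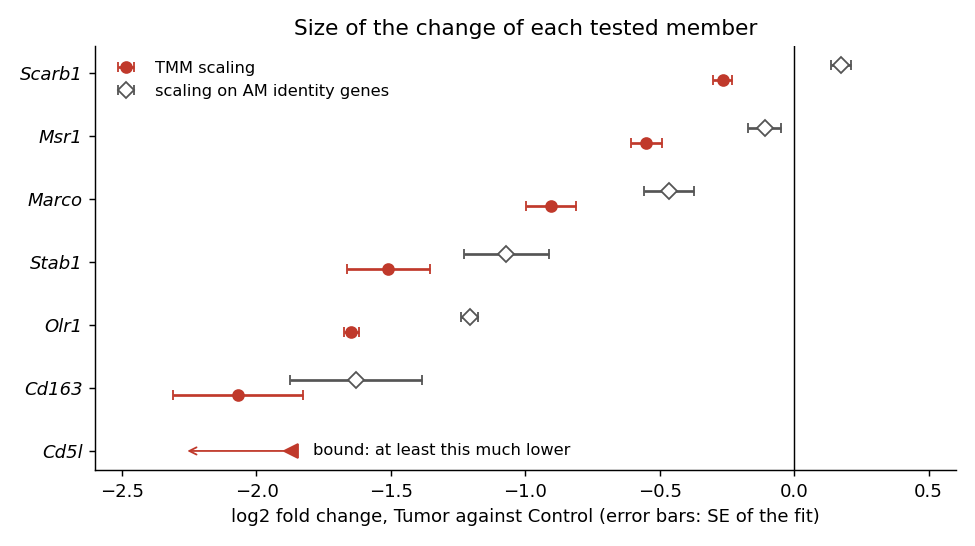
Log2 fold change of Tumor against Control for the 7 tested genes, with the SE of the fit as error bar. Filled circles use TMM scaling and open diamonds scaling on AM identity genes, and the triangle with an arrow is the bound of Cd5l. All circles lie below 0, from -0.27 for Scarb1 to -2.07 for Cd163, and with the other scaling Scarb1 lies above 0 at 0.17.

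With libraries scaled on AM identity genes, 5 of the 7 members, Marco, Stab1, Olr1, Cd163 and Cd5l, were still called lower, against 6.08% of all genes tested. Cd5l passed the filter only through its Control counts, so its call adds no support to that count. Scarb1 was called higher, as were 65.9% of all genes tested, and Msr1 was not called. The Kupffer cell genes, which mark liver macrophages that also express several of these receptors, were low, with a sum of 1.28 to 1.39 CPM in Control and 1.58 to 1.73 CPM in Tumor. Clec4f, a defining gene of that list, was at 0 in Control, with 3 and 10 counts in Tumor, and Timd4, the most abundant, had 13 and 17 counts in Control and 22 and 12 in Tumor. The monocyte and interstitial macrophage genes summed to 1149 to 1155 CPM in Control and 927.8 to 956.0 CPM in Tumor, mostly from Cd14, and Ccr2, a monocyte receptor, was at 5.86 ± 0.763 CPM in Control and 14.9 ± 0.0481 CPM in Tumor (SD, n = 2). Of the 9 genes of that list that were tested, 5 were called lower and 2 higher. The members of the list named next were picked after their values were seen. Cx3cr1, a chemokine receptor of interstitial macrophages and monocytes, had 52 and 58 counts in Control and 19 and 17 in Tumor, a log2 fold change of -1.71. The complement genes C1qa, C1qb and C1qc, which interstitial macrophages express, had log2 fold changes of -0.87, -1.27 and -1.09. These 4 genes thus fell in the same direction as Cd163, Stab1 and Cd5l, and with scaling on AM identity genes all 4 were still called lower, from -0.43 for C1qa to -1.27 for Cx3cr1. Folr2, another interstitial macrophage gene, had 5 and 3 counts in Control and 0 in both Tumor libraries and was not tested. The fibroblast genes, of which Pdgfra and Col1a1 were the most abundant, summed to 3.55 to 4.05 and 8.32 to 9.89 CPM, and the dendritic cell genes, led by Ccr7 and Cd209a, to 12.2 to 12.5 and 45.0 to 45.9 CPM. Liver sinusoidal endothelial genes summed to 23.9 to 25.8 and 97.1 to 100.04 CPM, mostly from Fcgr2b, which myeloid cells also express. Of the 3 genes of that list that were tested, 2 were called higher, Fcgr2b and Oit3, and none lower. Oit3 had 0 and 2 counts in Control and 71 and 66 in Tumor and was at least 17.7-fold higher. It passed the filter only through its Tumor counts. Alveolar type 2 genes summed to 219.9 to 220.6 and 190.3 to 195.6 CPM. Nearly all of the type 2 sum was Abca3, at 213.2 ± 0.9999 CPM in Control and 186.2 ± 2.71 CPM in Tumor, whereas the surfactant protein gene Sftpc was at 2.41 ± 0.445 and 3.32 ± 0.779 CPM (SD, n = 2) and was not called. Of the 5 type 2 genes that were tested, 3 were called lower and none higher. These were Abca3 and, at few counts, Sftpb and Sftpa1, with log2 fold changes of -0.89 and -0.99. With scaling on AM identity genes 3 of the 5 were called higher and none lower. General endothelial genes summed to 114.5 to 117.2 and 105.1 to 106.1 CPM, but most of that sum was Vwf, which went from 111.0 ± 2.82 to 81.9 ± 2.35 CPM (SD, n = 2). Of the 6 genes of that list 3 were called higher and 1 lower, with a median of 1.03, and Pecam1, which leukocytes also express, rose by 3.13 on the log2 scale. Tie1 and Cldn5, both at few counts, were also called higher, with log2 fold changes of 2.15 and 1.68. The part of these cells in the results was not tested.

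Of 20 other genes with scavenger receptor activity, 15 were tested, 8 were called lower, none was called higher and 7 did not pass the threshold. Their median log2 fold change was -0.26. Lrp1, an endocytic receptor for many plasma protein complexes, fell by 0.64 ± 0.0160 on the log2 scale (SE), from 4122 ± 52.3 to 2647 ± 37.2 CPM (SD, n = 2). Clec7a, the receptor for fungal glucans, fell by 0.57, Mrc1, the mannose receptor, by 0.47 and Cd36, a class B receptor for oxidised LDL and fatty acids, by 0.45. The level of Cd36 was 258.9 ± 12.4 CPM in Control and 189.5 ± 1.89 CPM in Tumor (SD, n = 2). With scaling on AM identity genes the falls of Lrp1 and Clec7a were -0.20 and -0.13 and still called, that of Cd36 was -0.01 and not called, and 8 of the 15 genes were called higher and 2 lower, beside 65.9% and 6.08% of all genes tested. Mrc1 is among the genes that set this scaling and is not read under it.

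Cargo that enters through these receptors is passed to the lysosome, and sterols are then stored or exported. Of 15 genes of sterol uptake, storage and export, 13 were called lower and 2 higher, with a median log2 fold change of -0.27. Pltp, a phospholipid transfer protein, fell by 0.73 ± 0.0333 on the log2 scale (SE), the cholesterol exporter gene Abca1 by 0.67 and Nr1h3, which encodes the sterol-sensing receptor LXR alpha, by 0.60. With scaling on AM identity genes 8 of the 15 were called higher and 4 lower, to be read against the same 65.9% and 6.08%. Under it Pltp and Abca1 were at -0.29 and -0.23 and still called. Nr1h3 was at -0.16 and not called, with an edgeR adjusted p of 0.101.

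Cd163 was also read beside the genes of haem and iron handling, of which 6 of 10 were called lower and 3 higher. With scaling on AM identity genes 2 were called lower and 6 higher, where 65.9% of all genes tested were called higher. Hmox1, which encodes the enzyme that degrades haem, fell by 2.10 ± 0.0322 on the log2 scale (SE), from 471.5 ± 11.5 to 110.1 ± 0.223 CPM (SD, n = 2), and by 1.66 with scaling on AM identity genes. The iron exporter gene Slc40a1 rose from 7.998 ± 0.0693 to 72.9 ± 0.844 CPM, a log2 fold change of 3.19 ± 0.0870 (SE). Hp, which encodes haptoglobin, rose from 4.39 ± 0.328 to 169.9 ± 4.62 CPM, and Hpx, which encodes the haem carrier hemopexin, from 0.679 ± 0.205 to 19.8 ± 1.83 CPM (SD, n = 2). Hp and Hpx are plasma protein genes of the liver. In the same libraries the hepatocyte marker Alb went from 0 counts to 470.5 ± 9.10 CPM (SD, n = 2), and the neutrophil genes rose as well. Hp already had 78 and 73 counts in Control, where Alb had 0. The source of the Hp and Hpx transcripts was not tested.

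Among 13 transcription factor genes tied to macrophage identity or to these receptors, 3 were called higher and 8 lower, and with scaling on AM identity genes, under which 65.9% of all genes tested were called higher, 7 were called higher and 4 lower. Both counts of lower genes include Spic, which passed the filter only through its Control counts. Ahr rose from 5.64 ± 0.176 to 58.8 ± 0.403 CPM (SD, n = 2). Nfe2l2, which encodes the oxidative stress factor NRF2, fell by 0.97 ± 0.0328 on the log2 scale (SE), Id3 by 1.61 and Bhlhe41, a factor of AM identity, by 0.98, and with scaling on AM identity genes these falls were -0.52, -1.17 and -0.54. Pparg, a factor needed for AM development, had a log2 fold change of -0.22, which became 0.22 under that scaling, of which Pparg is itself one of the reference genes. Spic, a haem-responsive factor of red pulp macrophages named here after its values were seen, had 12 and 15 counts in Control and 2 and 0 in Tumor and was at least 3.70-fold lower.

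**Figure D4:**
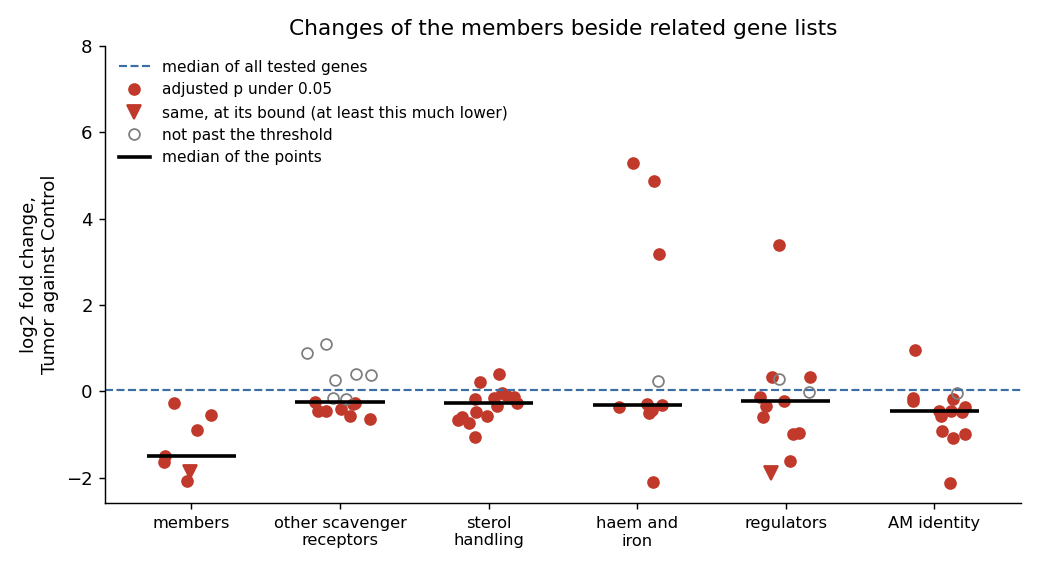
Log2 fold change of Tumor against Control for each tested gene of 6 lists, with TMM scaling. Red circles passed the threshold, grey open circles did not, red triangles are Cd5l and Spic at their bounds, black bars are medians and the dashed line is the median of all tested genes at 0.02. The members have the lowest median at -1.51, and the other lists have medians between -0.46 and -0.22.

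By the smallest Euclidean distance over the 4 log2 CPM values, the gene most like Marco in level and change was Zfp574, with 575, 488, 265 and 331 counts in Control replicates 1 and 2 and Tumor replicates 1 and 2, at a distance of 0.125. The nearest gene to Msr1 was Rnf180 at 0.108, to Scarb1 Gpr137b-ps at 0.0671, to Olr1 Malt1 at 0.158, to Stab1 Tmem218 at 0.324, to Cd163 Gpr85 at 0.331 and to Cd5l Gm42940 at 0.265. With 4 libraries in 2 groups, such likeness says little beyond a shared level and fold change. Gpr137b-ps is a pseudogene, whose reads can be shared with its parent gene.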

How the data were processed

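Total RNA of purified AMs was extracted with TRIzol, libraries were made with a NEBNext Ultra kit, and sequenced paired-end. The authors used HISAT2 2.0.5 for alignment and featureCounts for counting, and deposited raw counts, which carry no normalization. The genome build, strand setting and treatment of multi-mapped reads are not given in the sources used here. Of the gene identifiers, 54409 were found in GENCODE for GRCm38, 98.3% of them with identical coordinates, as were all 9 members, so positions are given as GRCm38.

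The test was run in edgeR 4.0.16 under R 4.3.3. Libraries were filtered with filterByExpr (minimum count 10), scaled by TMM and tested with the quasi-likelihood test with group as the single term, followed by Benjamini-Hochberg adjustment over the 14256 genes tested, at a threshold of 0.05. The submitters' processing notes also name DESeq2, with no role or settings, and the methods of the study give no test for these data. The SE was obtained from the size of the log2 fold change and its F statistic. Intervals of differences between members used the SEs and the degrees of freedom of the fit. Levels per kilobase used the gene length column of the table. A prior count of 2 entered log2 CPM values. In simulated counts for 54532 genes, 90.1% of 191 changed genes were recovered and 3.37% of calls were false. The labels do not say whether replicates were separate mice, so p-values measure the spread between these libraries. The fit estimates that spread largely over all genes. The residual degrees of freedom were 2, the median total of the fit was 26.2 and the common biological coefficient of variation was 0.0303. The p-values and intervals therefore rest mostly on this shared spread rather than on that of a single gene.

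The members, gene lists and tests were chosen with earlier results of these data known. Named were all members, the 4 largest called changes of each related list whose higher group averaged 100 counts or more, Cd36, Mrc1, Pparg and Ahr, and the 2 most abundant genes of each marker list, and, for each tested member, its nearest gene. Some genes that this rule names are not reported here. Alternatives were DESeq2 size factors, total counts, scaling on AM identity genes, no filter, a minimum of 10 counts per library, DESeq2 1.42.0 (Wald), voom in limma 3.58.1, a replicate block, dropping the 20 most counted genes, plain counts for shares, a 2-fold threshold and leaving out each library.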

Additional observations from a re-analysis of the deposited data

How the results depend on the processing

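Under every other scaling, filter, tool, block and left-out library, Marco, Stab1, Olr1 and Cd163 stayed lower and called, with log2 fold changes of -0.996 to -0.47, -1.74 to -1.07, -1.70 to -1.21 and -2.25 to -1.63. Scaling on AM identity genes gave 1 member called higher, Scarb1 at 0.17, and left Msr1 at -0.11 and not called, with 91.6% of 10262 called genes higher against 53.9% of 7671. Under it Pparg turned to 0.22, Cd14 to 0.14, Vwf to 0.00274, Pdgfra to 0.23 and Abca3 to 0.24. Nr1h3 at -0.16 and Cd36 at -0.01 were no longer called. Requiring at least 2-fold left 2268 genes called and 4 members called lower, without Marco, Msr1 and Scarb1. Plain counts in place of counts per kilobase put the mean share of Marco among the 4 class A members at 26.3% in Control and 21.7% in Tumor, and that of Msr1 at 73.7% and 78.0%, since Msr1 is the longer gene. Leaving out 1 library at a time, where the lone library is assumed to vary like the other group, gave Cd5l fitted values of -2.79 to -2.18, and without Control replicate 1 it was not called. Timd4, which rests on few counts, ran from -0.52 to 0.53. With no filter, Scara3 and Scara5 had adjusted p of 0.626 and 0.566, and with at least 10 counts in every library Cd5l was not tested.

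The replicate number as a block gave 7446 called genes, with all 7 tested members lower, and changed no call of a member. Deviations of same-numbered libraries correlated at -0.00278 over genes, and with 2 pairs nothing shows that the numbers pair the samples. Depth limits Scara3, Scara5 and Cd5l.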
